A study of Mus musculus with 12 samples.

Results

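The genes described here build and serve the route by which newly made proteins enter the endoplasmic reticulum (ER). They are the 37 genes of a fixed list of symbols: the signal recognition particle and its receptor, the Sec61 translocon with its partners, ER chaperones and folding enzymes, and the sensors of the unfolded protein response. All 37 were in the deposited table of 55450 genes, and all 37 passed the filter on low counts that left 14346 genes for testing. Their RNA was measured in Lin- Kit+ cells, which are bone marrow cells without the antigens of mature lineages and with the receptor Kit, a population of stem and progenitor cells. The donor's share of these cells was sorted out of the marrow of competitive transplant recipients, which are mice given donor marrow together with competitor marrow. The 12 libraries carry 4 genotype labels with 3 libraries each: WT, Tet2 KO (here Tet2KO), Id1 KO (here Id1KO) and Tet2 KO + Id1KO (here dKO). Tet2 encodes a dioxygenase that oxidises methylated cytosine in DNA, and Id1 encodes an inhibitor of DNA binding by helix-loop-helix factors. The design asks how loss of Tet2 and loss of Id1 change the transcriptome, alone and together. How the alleles were made, and the age of the mice, are not given in the sources used here.

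As background, a ribosome that makes a secreted or membrane protein is recognised by the signal recognition particle when the signal peptide emerges, is brought to the receptor on the ER membrane, and passes its chain through the Sec61 channel. Inside the ER, chaperones, lectins and disulfide isomerases fold the chain, and chains that fail are sent back to the cytosol for degradation. When unfolded chains build up, the sensors encoded by Ern1 (IRE1), Atf6 and Eif2ak3 (PERK) start the unfolded protein response, which raises chaperone genes through the factors XBP1 and ATF6. Myeloid progenitors make large amounts of granule proteins that take this route, and blood stem cells are known to be sensitive to ER stress.

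The sequence by which ATF6 and XBP1 act on many of these genes, the ER stress element, is shown first because several of the chaperone genes below hold it. Promoters were those of RefSeq on GRCm38.p6, from 250 bases before to 50 bases after the start, and 30 of the 37 genes had an entry. The element was searched on both strands as CCAAT, then 9 bases of any kind, then CCACG. It was found in 7 of the 30 promoters (23.3%), and in 37 of 27025 genes with a promoter in that table (0.137%). A second form, ATTGG, 1 base of any kind and CCACG, was found in Herpud1 (1 of 30, 3.33%) and in 12 of all genes (0.0444%). The unfolded protein response element TGACGTGG was in 0 of the 30 windows and in 0.714% of all genes. The matches are given 5′ to 3′ with the fixed letters in capitals, the gene's name, the position and the strand on which they read relative to the gene:
Calr, chr8:84847075-84847093, other strand: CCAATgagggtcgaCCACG
Canx, chr11:50325800-50325818, gene strand: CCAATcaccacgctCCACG
Creld2, chr15:88819520-88819538, other strand: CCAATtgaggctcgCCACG
Dnajc3, chr14:118937827-118937845, gene strand: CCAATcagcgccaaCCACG
Hsp90b1, chr10:86705533-86705551, other strand: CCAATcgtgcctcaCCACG
Hsp90b1, chr10:86705638-86705656, gene strand: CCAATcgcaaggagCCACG
Hspa5, chr2:34772025-34772043, gene strand: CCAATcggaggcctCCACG
Pdia6, chr12:17266491-17266509, gene strand: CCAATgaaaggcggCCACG
Herpud1, chr8:94386377-94386387, gene strand: ATTGGgCCACG
The 250 bases before the start are shown for 4 genes whose RNA is described below, Hspa5 and Herpud1 for their large differences, Creld2 for its low level in the libraries labelled Tet2KO, and Hsp90b1 because it holds 2 elements. They read along the gene, with the fixed letters of each element in capitals. An element on the other strand appears there as its reverse complement:
Hspa5, chr2:34771840-34772089, plus strand: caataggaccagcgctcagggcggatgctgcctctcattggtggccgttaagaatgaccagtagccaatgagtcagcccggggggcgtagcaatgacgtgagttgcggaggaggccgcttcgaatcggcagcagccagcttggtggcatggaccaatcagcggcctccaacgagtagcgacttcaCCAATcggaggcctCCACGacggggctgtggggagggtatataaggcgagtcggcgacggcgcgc
Herpud1, chr8:94386179-94386428, plus strand: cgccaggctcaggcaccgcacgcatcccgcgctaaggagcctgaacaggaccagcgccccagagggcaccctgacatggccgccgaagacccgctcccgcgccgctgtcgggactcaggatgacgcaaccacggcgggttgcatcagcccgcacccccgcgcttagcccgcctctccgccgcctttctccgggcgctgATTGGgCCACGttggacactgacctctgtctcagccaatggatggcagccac
Creld2, chr15:88819396-88819645, plus strand: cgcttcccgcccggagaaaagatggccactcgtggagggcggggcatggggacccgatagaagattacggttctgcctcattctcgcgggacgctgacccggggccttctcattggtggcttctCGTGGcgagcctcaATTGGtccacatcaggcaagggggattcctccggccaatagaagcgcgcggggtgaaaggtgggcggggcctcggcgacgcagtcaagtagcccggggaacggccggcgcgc
Hsp90b1, chr10:86705445-86705694, minus strand: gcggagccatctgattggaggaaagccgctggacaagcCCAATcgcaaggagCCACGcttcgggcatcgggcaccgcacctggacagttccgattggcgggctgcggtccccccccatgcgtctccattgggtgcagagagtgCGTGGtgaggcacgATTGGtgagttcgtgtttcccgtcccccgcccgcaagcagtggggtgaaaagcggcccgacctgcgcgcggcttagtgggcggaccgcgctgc
The element of Hspa5 began 65 bases before the start and that of Herpud1 52 bases before it, and those of Calr, Canx, Creld2, Dnajc3 and Pdia6 began 98 to 162 bases before it. The 2 elements of Hsp90b1 began 107 and 212 bases before the start. These distances are from the RefSeq start. The Hspa5 gene model used for exons and positions begins earlier, at 34771970, so the element of Hspa5 lies inside that model. A match is a run of letters and not evidence of binding.

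**Figure D1:**
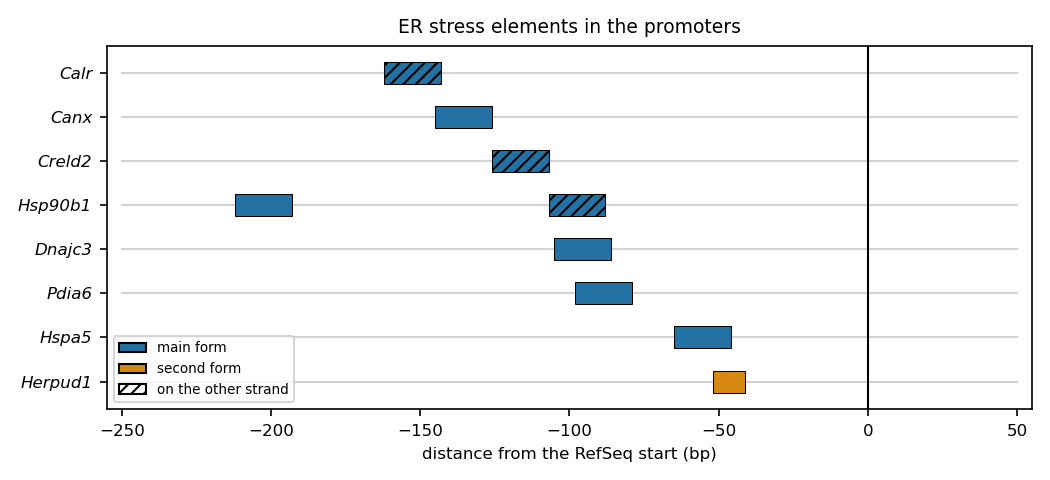
Position of each ER stress element match relative to the RefSeq start (x axis, bp, 0 is the start) in the 8 promoters that hold one; grey lines span the 300 bases searched. Blue bars are the main form, the orange bar is the second form in Herpud1, and hatching marks matches on the other strand. All 9 matches lie upstream of the RefSeq start.

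Libraries held 15706407 to 19959183 estimated counts, and the lowest count of a member in a library was 234 (Sec61g). Levels below are CPM, counts divided by the library's size after scaling by TMM, the trimmed mean of M-values. Neither targeted gene was lower where its loss is labelled, so each genotype name below is the label of the libraries. Tet2 averaged 129.9 ± 2.51 CPM (SD, n = 3) under the Tet2KO label and 118 ± 3.08 under dKO, against 99.3 ± 2.2 under WT and 92 ± 1.55 under Id1KO. Id1 averaged 1.47 ± 0.268 CPM under WT and 3.86 to 3.96 CPM under the other 3 labels. Xist, the RNA of the inactive X chromosome, averaged 262 CPM under WT, 64.9 under Id1KO, 16.7 under dKO and 10.8 under Tet2KO, so the makeup by sex and the genotype label cannot be told apart. The titles give the 3 libraries of a genotype 1 sample number, so they may be repeats of 1 cell sample, and p-values measure the spread between these libraries only. The median squared difference of counts, in units of sampling noise, was 1.18 to 2.01 times its value for sampling alone in the 12 pairs within a genotype and 2.64 to 5.95 times in the 54 pairs between genotypes. All 9 progenitor markers were detected, among them Kit, Cd34 and Mpo, and of the antigens removed by the depletion Cd3e, Cd4, Cd8a and Ly6g averaged under 1 CPM. Of 9 plasma cell markers, which would come with a large ER, 7 averaged under 1 CPM (Jchain, Igkc, Mzb1, Prdm1, Irf4, Tnfrsf17 and Derl3).

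The chaperones of the ER lumen were the most abundant members. Per kilobase of exon, over all 12 libraries, Calr (calreticulin, a lectin chaperone that binds calcium) averaged 661 CPM per kb, with a range of 613 to 692. P4hb, a disulfide isomerase, followed at 386, then Hspa5 (BiP, the Hsp70 of the ER) at 250.3, Canx (calnexin, the membrane lectin chaperone) at 232, Hsp90b1 (Grp94, the Hsp90 of the ER) at 184 and Pdia3 at 137 CPM per kb. The ranges of Hspa5 (227 to 282) and Canx (219 to 244) overlapped, and the other neighbours among these 6 did not. From Sec61b (118) down to Sdf2l1 (93.8) each neighbour's range overlapped the next. The lowest were Sec63 (8.61), Sec61g (6.82) and Eif2ak3 (6.77 CPM per kb), of which Sec61g overlapped both others in range while Sec63 and Eif2ak3 did not overlap, and the median over all genes tested was 5.29 CPM per kb. Among the channel subunits Sec61b stood above Sec61a1 (54.2 CPM per kb), and both stood above Sec61g. Sec61g shares 424 of its 2464 exonic bp with a copy, described below. It was assigned 15.6 to 18.8% of the joint count with that copy. Its place among the lowest members may therefore depend on how shared reads were assigned.

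Levels differed little between genotype labels. The ratio of the highest to the lowest genotype mean was 1.41 for Ern1, 1.38 for Dnajb9, 1.35 for Sec61g, 1.32 for Herpud1 and 1.23 for Hspa5. It was 1.17 (Srp19) or less for the other 32, down to 1.03 for Ssr1. The heat map of the members by library shows whole genotype blocks apart in the rows of these 5 genes. It does so too in some rows with smaller ratios, such as Calr and Srp54a in dKO.

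**Figure D2:**
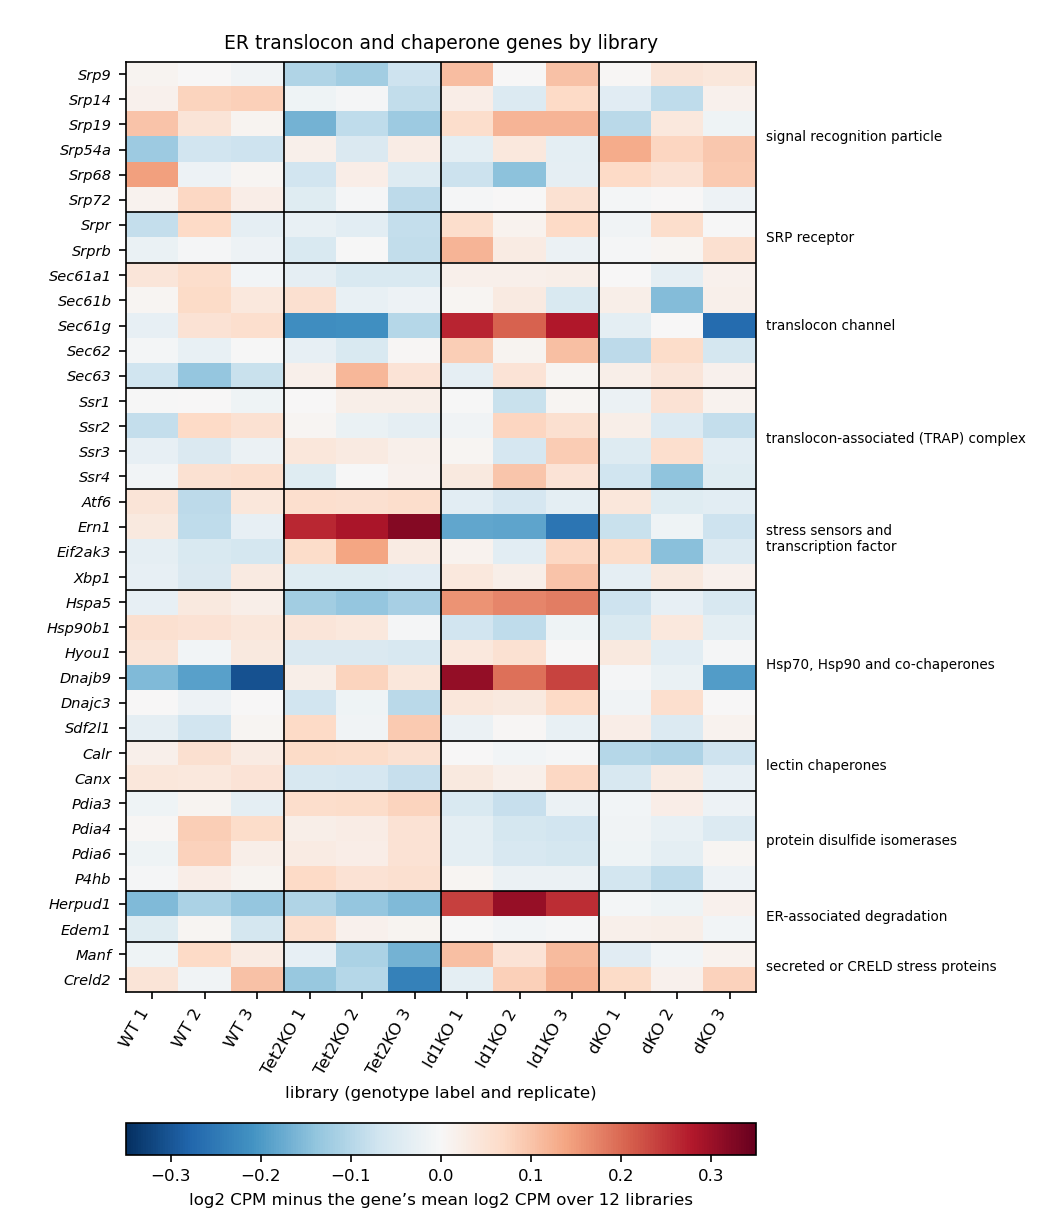
Each cell is the log2 CPM of a gene (rows, by role) in a library (columns, by genotype label and replicate) minus that gene's mean over the 12 libraries; the colour scale is in log2 units and is clipped at its ends. Ern1 is highest in the 3 libraries labelled Tet2KO, and Hspa5, Dnajb9, Sec61g and Herpud1 are highest in the 3 labelled Id1KO.

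Genotype labels were compared with edgeR's quasi-likelihood test over all genes, and a gene was called where the adjusted p (Benjamini-Hochberg over 14346 genes) was below 0.05. In Tet2KO against WT, 15 of the 37 were called (40.5%), 5 higher and 10 lower, where 32.8% of all genes tested were called, 16.6% higher and 16.2% lower. In Id1KO against WT, 8 were called (21.6%), 4 higher and 4 lower, against 15.0% of all genes (7.26% higher and 7.77% lower). In dKO against WT, 6 were called (16.2%), 3 in each direction, against 19.2% of all genes (10.2% higher and 8.97% lower). These 3 comparisons share the libraries labelled WT. Adding the Id1 label to the Tet2 label, in dKO against Tet2KO, gave 8 calls (21.6%), 5 higher and 3 lower, against 26.4% of all genes (13.1% higher and 13.4% lower). Adding the Tet2 label to the Id1 label, in dKO against Id1KO, gave 10 calls (27%), 3 higher and 7 lower, against 19.3% of all genes (10.6% higher and 8.70% lower). The interaction, which is the difference between dKO and Tet2KO minus the difference between Id1KO and WT, was called for 5 (13.5%), 1 positive and 4 negative, against 14.5% of all genes (7.46% and 7.03%). The share of members called was above that of all genes in 3 comparisons and below it in 3, as the chart of shares shows. Median log2 fold changes of the members ran from -0.03 (dKO against Id1KO) to 0.02 (Id1KO against WT), where those of all genes were -0.00 and -0.01. Their median absolute log2 fold change was smaller than that of all genes in every comparison, for example 0.08 against 0.13 in Tet2KO against WT and 0.05 against 0.10 in Id1KO against WT. All members averaged 6.77 CPM per kb or more, where the median of all genes tested was 5.29. Genes of like level were not compared, so the part of level in this gap was not tested.

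**Figure D3:**
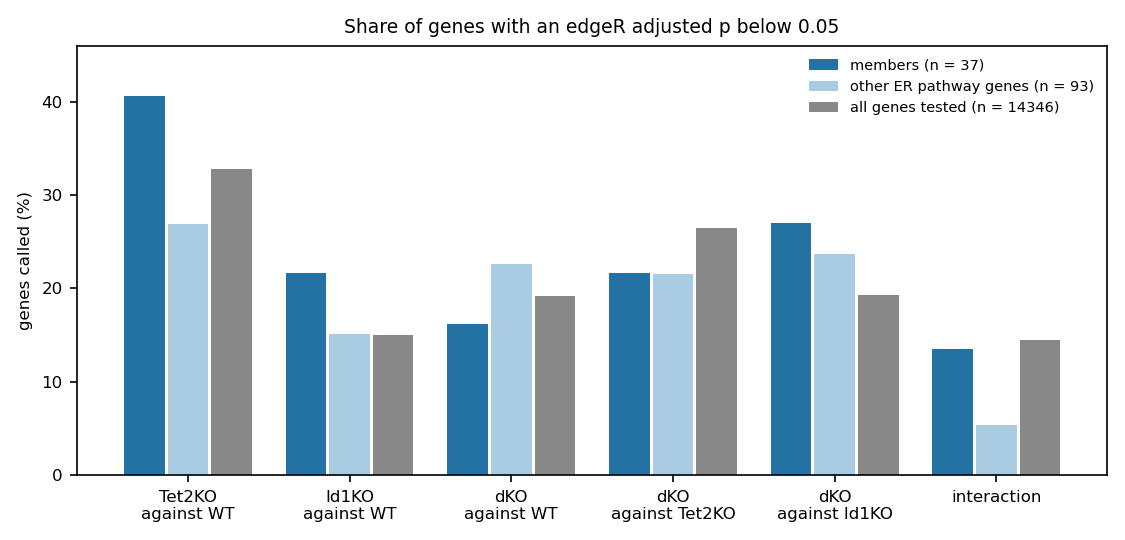
Bars are the percentage of genes called (y axis, edgeR adjusted p below 0.05) in each of the 6 comparisons (x axis) for the 37 members, 93 other ER pathway genes and all 14346 genes tested. Members range from 13.5% (interaction) to 40.5% (Tet2KO against WT) and lie above the bar of all genes in 3 comparisons and below it in the other 3.

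Over the 6 comparisons 22 members were called at least in 1, which gave 52 calls, and 15 were called in none: Srp14, Srpr, Srprb, Sec61b, Sec62, Ssr1, Ssr2, Ssr3, Atf6, Eif2ak3, Xbp1, Dnajc3, Sdf2l1, Pdia6 and Edem1. Of the 52 calls, 30 held in each of the 12 fits that left out 1 library, and the others are named below with the libraries that decided them. Tested against a 1.2-fold change, the members called were Dnajb9 and Herpud1 in Id1KO against WT (0.976% of all genes called) and Dnajb9 in the interaction (1.65%). No member was called in that test in Tet2KO against WT (5.36% of all genes), dKO against WT (3.32%), dKO against Tet2KO (2.33%) or dKO against Id1KO (3.35%), where 1, 0, 1 and 1 members had an unadjusted p under 0.05 in edgeR. When the libraries of each genotype were summed and each label was fitted as 1 additive effect on the 4 sums, edgeR called 0 members for the Tet2 label (1.62% of all genes) and 0 for the Id1 label (0.0488%). Unadjusted p was under 0.05 for Ern1, Hspa5 and Sec61g under the Tet2 label, with a smallest adjusted p of 0.12 (Hspa5), and for Ern1, Herpud1 and Hspa5 under the Id1 label, with a smallest adjusted p of 0.389 (Ern1).

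**Figure D4:**
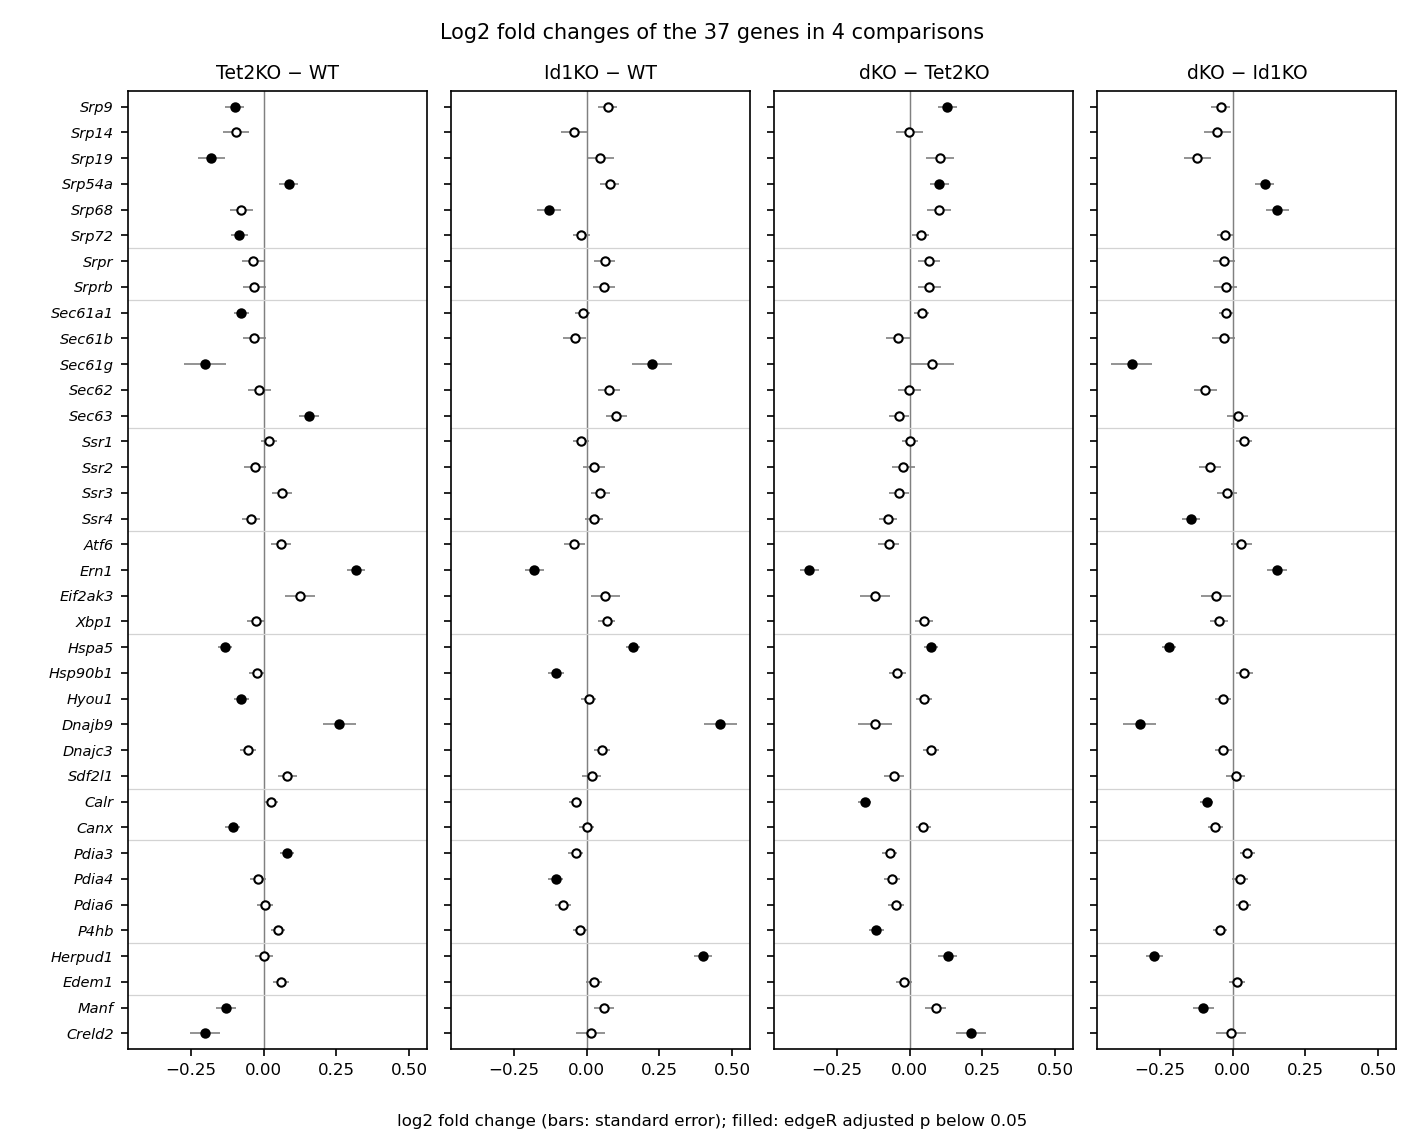
Log2 fold change (x axis) of each of the 37 genes (rows) in 4 comparisons (panels), with its standard error as a bar; filled points have an edgeR adjusted p below 0.05. Most points lie close to 0. Ern1 (0.32) and Dnajb9 (0.26) are highest in Tet2KO against WT, Dnajb9 (0.46) and Herpud1 (0.40) in Id1KO against WT, and Sec61g (-0.35) is lowest in dKO against Id1KO.

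Of the 6 genes for proteins of the signal recognition particle, 4 were called in Tet2KO against WT, 3 lower and 1 higher, where 32.8% of all genes were called. The call of Srp19 held in each fit, and the other 3 were lost when some libraries were left out. Srp19, which prepares the particle's RNA for the signal-binding subunit, was lower, at 36.5 ± 0.96 CPM against 41.3 ± 1.3 in WT (log2 fold change -0.18 ± 0.047 (SE), adjusted p 0.00571), and the libraries did not overlap. Srp9, which with Srp14 pauses translation, was at 94 ± 1.6 against 101 ± 0.83 CPM (-0.10, adjusted p 0.0249), but that call was lost when WT replicate 1, 2 or 3 or Tet2KO replicate 1 or 2 was left out (up to 0.113) and in DESeq2 (0.086). In dKO against Tet2KO Srp9 rose by 0.13 ± 0.033 (adjusted p 0.00646), a call that held in each fit. Srp72, a scaffold that binds the RNA with Srp68, was at 194.5 ± 5.9 against 206 ± 4.5 CPM (-0.08, adjusted p 0.032). Its call was lost without WT replicate 2 or 3, Tet2KO replicate 1 or 3, Id1KO replicate 1 or dKO replicate 3 (up to 0.221), and in DESeq2 (0.0662). Srp14 was at 47 ± 1.5 against 50.2 ± 1.3 CPM and was not called (adjusted p 0.115). In this comparison 5 of the 6 genes had lower means, and Srp54a alone had a higher one.

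Srp54a (ENSMUSG00000073079.6, chromosome 12, 55080262 to 55115367) encodes the GTPase that binds the signal peptide. It had 98.8, 103 and 102.6 CPM where the label was WT and 109.1, 104.1 and 109.9 where it was Tet2KO. In Id1KO libraries the values were 105.3, 110.7 and 105.4 CPM, and in dKO libraries 118.1, 113.6 and 115.2. The 3 WT libraries were lowest and the 3 dKO libraries highest, and neither group overlapped any other, while Tet2KO and Id1KO overlapped each other. The log2 fold change was 0.19 ± 0.033 in dKO against WT (adjusted p 0.000308), the highest of the members called there. In dKO against Tet2KO it was 0.10 (adjusted p 0.0265), lost without Tet2KO replicate 2 (0.151), dKO replicate 1 or dKO replicate 3. In dKO against Id1KO it was 0.11 (0.0218), lost without Id1KO replicate 1 (0.097), Id1KO replicate 3, dKO replicate 1 or dKO replicate 3, and in Tet2KO against WT 0.09 (0.0474), lost without WT replicate 1 or 3 or Tet2KO replicate 1 or 3 (up to 0.149). DESeq2 lost all 3 of these weaker calls (0.0755, 0.0791 and 0.121). The mouse genome holds close copies, Srp54b and Srp54c on the same chromosome (99.6% identity over 3644 bp), and Srp54a held 45 to 46% of the counts of the 3. Their sum went from 220.4 ± 5.64 CPM under WT to 235 ± 3.26 under Tet2KO, 238 ± 4.71 under Id1KO and 252 ± 2.99 under dKO, and was called higher than in WT in Tet2KO (0.09, adjusted p 0.0122), Id1KO (0.11, 0.00705) and dKO (0.19, 3.25e-05). The order of the labels for the gene with its copies was thus that of the gene alone, except that Id1KO and Tet2KO changed places.

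Srp68 (ENSMUSG00000020780.15, chromosome 11, 116245166 to 116274217) is the partner of Srp72 on the particle's RNA. It gave 127.9, 114.3 and 116.2 CPM in the WT libraries and 110.4, 117.5 and 112.1 in those labelled Tet2KO. The Id1KO libraries held 109.9, 104.7 and 113.2 CPM and the dKO libraries 121.4, 119.9 and 123.2. WT replicate 1 was the highest of all 12 libraries, and Id1KO did not overlap WT or dKO. Its level was higher in dKO than in Id1KO by 0.15 ± 0.04 (log2, adjusted p 0.0102), but without Id1KO replicate 2 the adjusted p was 0.0676. The lower level in Id1KO against WT (-0.13, adjusted p 0.0326) was lost without WT replicate 1 (0.213), Id1KO replicate 1 or Id1KO replicate 2, and in DESeq2 (0.0523). The interaction was 0.23 ± 0.057 (adjusted p 0.00978) and held in each fit, so that the Id1 label went with a lower level where Tet2 was labelled WT and with a higher mean where it was labelled KO (dKO against Tet2KO 0.10, adjusted p 0.0749). The receptor subunits Srpr and Srprb were called in no comparison. Srpr ran from 98.7 ± 2.1 CPM in Tet2KO to 106 ± 2.3 in Id1KO, and Srprb from 65.8 ± 1.9 to 70.1 ± 3.5 in the same groups, with adjusted p of 0.209 or more throughout.

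In the channel, 3 of 5 genes were called in Tet2KO against WT, where 32.8% of all genes were called: Sec61a1 and Sec61g lower and Sec63 higher. Sec63, whose luminal J domain brings BiP to the channel, was the one of these that held in each fit. Its mean was 78.9 ± 2.72 CPM in Tet2KO against 70.8 ± 1.7 in WT (0.16 ± 0.035, adjusted p 0.00204), 76 ± 2 in Id1KO (adjusted p 0.0571) and 76.9 ± 0.8 in dKO (0.12, adjusted p 0.0234). The 3 WT libraries were the lowest of the 12 for Sec63, and the dKO call was lost without WT replicate 2 (0.0959) or dKO replicate 2, and in DESeq2 (0.0909). Sec61a1, the pore, was at 353 ± 3.1 CPM in Tet2KO against 373 ± 9.3 in WT (-0.08, adjusted p 0.0258), which was lost without WT replicate 1, WT replicate 2 (0.142), Tet2KO replicate 2 or Tet2KO replicate 3. Sec61b and Sec62 were called in no comparison, with means of 146 to 153 and 87.2 to 93.2 CPM.

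Sec61g (ENSMUSG00000078974.10, chromosome 11, 16500530 to 16508484), the small anchoring subunit, had the largest fold changes of the channel. It had 16.3, 17.3 and 17.4 CPM where the label was WT and 14.3, 14.4 and 15.6 where it was Tet2KO. In Id1KO libraries the values were 20, 19.3 and 20.3 CPM, and in dKO libraries 16.3, 16.7 and 13.8. The 3 Id1KO libraries were above all others, and the 3 Tet2KO libraries were below all WT libraries. The level was lower in dKO than in Id1KO by a log2 fold change of -0.35 ± 0.071 (adjusted p 0.00141), a call that held in each fit. The difference in Id1KO against WT (0.22, adjusted p 0.0301) was lost without any 1 of the 3 WT libraries, Id1KO replicate 1 or Id1KO replicate 3 (up to 0.101), and in DESeq2 (0.0994). That in Tet2KO against WT (-0.20, adjusted p 0.0379) was lost without WT replicate 2 or 3, Tet2KO replicate 1 or 2, or Id1KO replicate 1 or 3 (up to 0.129), and in DESeq2 (0.124). Reads of Sec61g are shared with Gm10177 on chromosome 9 (99.1% identity over 424 bp), which held most of the joint count, so that the part assigned to Sec61g was 15.6 to 18.8%. The sum of both was 107 ± 1.29 CPM under WT and 106 ± 3.62 under Id1KO, and 94.7 ± 0.631 and 93.2 ± 2.26 CPM under Tet2KO and dKO. For the sum the fold change was -0.01 in Id1KO against WT (adjusted p 0.801), while it was -0.18 in Tet2KO against WT (0.000241), -0.20 in dKO against WT (0.00013) and -0.18 in dKO against Id1KO (0.000297). The lower level with the Tet2 label was thus seen in the sum, and the higher level with the Id1 label was not.

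The translocon-associated (TRAP) complex, which helps some signal peptides open the channel, had few differences. Ssr1, Ssr2 and Ssr3 were called in no comparison, and Ssr1 varied least of all members, from 494 ± 16 CPM in Id1KO to 507 ± 12 in dKO. Ssr4, the subunit encoded on the X chromosome, averaged 163 ± 5.57 CPM in dKO and 171 ± 3.48 in Tet2KO, 177 ± 4.57 in WT and 179.6 ± 4.1 in Id1KO. It was lower in dKO than in Id1KO (-0.14 ± 0.031, adjusted p 0.00248). Against WT it was also lower (-0.12, adjusted p 0.0102), which was lost without WT replicate 2, WT replicate 3 (0.0599) or dKO replicate 2. Ssr2 shares 366 bp at 98.6% identity with Rtraf, and the sum of the pair was called in no comparison either (smallest adjusted p 0.116).

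Among the sensors, Ern1 (ENSMUSG00000020715.9, chromosome 11, 106394650 to 106487852), which encodes the kinase and RNase IRE1, was the member with the largest ratio between genotype means (1.41). It gave 180.8, 166 and 173.1 CPM in the WT libraries and 212.1, 215.2 and 220.4 in those labelled Tet2KO. The Id1KO libraries held 155.7, 155.3 and 147.8 CPM and the dKO libraries 167.3, 174.7 and 167.8. The Tet2KO libraries were the 3 highest and the Id1KO libraries the 3 lowest of the 12, and those labelled WT and dKO overlapped. On the log2 scale the level differed by 0.32 ± 0.032 in Tet2KO against WT (adjusted p 3.03e-07) and -0.18 ± 0.033 in Id1KO against WT (0.000864). Against Tet2KO the change in dKO was -0.35 ± 0.033 (1.99e-07), against Id1KO it was 0.15 ± 0.034 (0.00287), and all 4 calls held in each fit. Each label thus went with the same direction with and without the other label. The interaction was -0.17 ± 0.047 (adjusted p 0.0212), and that call was lost without WT replicate 2, Tet2KO replicate 3 (0.0568), Id1KO replicate 1 or Id1KO replicate 2.

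The other 2 sensors and the target of IRE1 were not called. Xbp1 (ENSMUSG00000020484.18, chromosome 11, 5520659 to 5525893), whose RNA is spliced by IRE1 into the form that encodes the active factor, had 139.1, 137 and 144.9 CPM where the label was WT and 137.9, 137.7 and 138 where it was Tet2KO. In Id1KO libraries the values were 145.6, 143.8 and 152.1 CPM, and in dKO libraries 138.8, 145.3 and 143.3. Its libraries overlapped between WT and each other label. The fold change was largest in Id1KO against WT, at 0.07 ± 0.03 (adjusted p 0.136). Counts are per gene and do not tell the spliced form from the unspliced one. Atf6 ran from 94.6 ± 0.9 CPM in Id1KO to 101 ± 0.16 in Tet2KO, with a smallest adjusted p of 0.161. Eif2ak3 ran from 39.4 ± 0.43 CPM in WT to 43 ± 1.6 in Tet2KO (adjusted p 0.0691).

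Of the Hsp70 and Hsp90 chaperones and their co-chaperones, Hspa5 and Dnajb9 had the largest differences. Hspa5 (ENSMUSG00000026864.13, chromosome 2, 34771970 to 34777547) encodes BiP, which binds unfolded chains and holds the sensors inactive, and its promoter element is printed above. It gave 1034, 1080 and 1070 CPM in the WT libraries and 969.7, 961 and 974 in those labelled Tet2KO. The Id1KO libraries held 1176, 1187 and 1194 CPM and the dKO libraries 1004, 1035 and 1016. The 3 Id1KO libraries were the highest and the 3 Tet2KO libraries the lowest of the 12, and WT replicate 1 lay just below dKO replicate 2, so that WT and dKO overlapped. The log2 fold change was 0.16 ± 0.025 in Id1KO against WT (adjusted p 0.000172) and -0.13 ± 0.025 in Tet2KO against WT (0.000364). It was -0.22 ± 0.025 in dKO against Id1KO (2.24e-06), and these 3 calls held in each fit. The rise in dKO against Tet2KO (0.07, adjusted p 0.0359) was lost without WT replicate 3, any 1 of the 3 Tet2KO libraries, Id1KO replicate 1, dKO replicate 2 or dKO replicate 3 (up to 0.13). Hspa5 and Ern1 stood in opposite order over the labels at both ends, with Hspa5 lowest and Ern1 highest in Tet2KO, and Hspa5 highest and Ern1 lowest in Id1KO.

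Dnajb9 (ENSMUSG00000014905.4, chromosome 12, 44205559 to 44210326) encodes ERdj4, a J-domain partner of BiP that keeps IRE1 inactive. It had 28.4, 27.7 and 25.6 CPM where the label was WT and 32.1, 33.4 and 32.5 where it was Tet2KO. In Id1KO libraries the values were 39.1, 36.1 and 37.2 CPM, and in dKO libraries 31.5, 31.1 and 27.6. The Id1KO libraries were above all others, and the Tet2KO libraries were above those labelled WT and dKO, which overlapped. In log2, Dnajb9 was higher by 0.46 ± 0.056 in Id1KO than in WT (1.38-fold, adjusted p 1.16e-05) and by 0.26 ± 0.058 in Tet2KO than in WT (1.2-fold, 0.00169). In dKO against Id1KO the difference was -0.32 ± 0.057 (0.000403). Each label alone thus went with a higher level, whereas dKO against WT was not called (0.14 ± 0.059, adjusted p 0.104), and the interaction was -0.58 ± 0.081 (6.36e-05), the most negative of the members. These 4 calls held in each fit. The promoter window of Dnajb9 held none of the 3 motifs. Under the summed fit, which allows no interaction, its Tet2 label effect was -0.03 (adjusted p 0.951).

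The remaining chaperones of this group moved little. Hsp90b1, which folds a narrower set of chains than BiP, was at 714 ± 19 CPM in Id1KO against 768 ± 4.3 in WT (-0.11, adjusted p 0.0155), which was lost without Id1KO replicate 1 (0.0741) or Id1KO replicate 2. Hyou1, which recharges BiP with ATP, was at 393 ± 1 CPM in Tet2KO against 415 ± 8.3 in WT (-0.08, adjusted p 0.0358), which was lost in 7 fits: without WT replicate 1 or 3, any 1 of the 3 Tet2KO libraries, Id1KO replicate 1 or dKO replicate 3 (up to 0.135). Dnajc3, a J-domain protein that also restrains PERK, ran from 179 ± 5 CPM in Tet2KO to 193 ± 2.5 in Id1KO and was not called (smallest adjusted p 0.0643). Sdf2l1, a partner of BiP complexes, ran from 102 ± 2.6 in WT to 108 ± 4 in Tet2KO (adjusted p 0.0669). Calls of the members that hold an ER stress element went in both directions in some comparisons and only lower in others. Of the 8 with either form, 2 were called higher and 1 lower in Id1KO against WT, and 0 higher and 3 lower in Tet2KO against WT. The 22 members with a promoter entry and no element had 2 higher and 2 lower, and 5 higher and 3 lower, in the same comparisons. Of all genes, 15.0% (7.26% higher and 7.77% lower) and 32.8% (16.6% higher and 16.2% lower) were called there. For the 8 with an element, the dKO libraries had 3 called higher and 1 lower against Tet2KO (median log2 fold change 0.06), and 0 higher and 3 lower against Id1KO (-0.05). The 22 without one had 2 higher and 2 lower (-0.03), and 2 higher and 3 lower (-0.03). Of all genes, 26.4% (13.1% higher and 13.4% lower) and 19.3% (10.6% higher and 8.70% lower) were called in these 2 comparisons.

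The lectin chaperones and disulfide isomerases differed by less than 0.2 in log2 throughout. Calr (ENSMUSG00000003814.8, chromosome 8, 84841850 to 84846934) gave 1926, 1978 and 1942 CPM in the WT libraries and 1994, 1990.0 and 1973 in those labelled Tet2KO. The Id1KO libraries held 1906, 1891 and 1899 CPM and the dKO libraries 1777, 1767 and 1809. The 3 dKO libraries were the lowest of the 12 and overlapped no other group, while WT and Tet2KO overlapped. The log2 fold change in dKO was -0.13 ± 0.023 against WT (adjusted p 0.000541), -0.15 ± 0.023 against Tet2KO (5.6e-05) and -0.09 ± 0.023 against Id1KO (0.00933), all of which held in each fit. In Tet2KO and Id1KO against WT it was 0.03 and -0.04 (adjusted p 0.407 and 0.309), and the interaction was -0.12 ± 0.033 (0.021), which was lost when no filter was set on low counts (0.072). Canx was lower in Tet2KO than in WT, at 1039 ± 9 against 1118 ± 5.2 CPM (-0.11 ± 0.026, adjusted p 0.00385), and was called in no other comparison.

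Of the 4 disulfide isomerases, P4hb was lower in dKO than in Tet2KO (1063 ± 26 against 1151 ± 8 CPM, -0.11 ± 0.025, adjusted p 0.00187), and that call held in each fit. Pdia3, which works with the lectin chaperones, was at 452 ± 2.8 CPM in Tet2KO against 427 ± 6.3 in WT (0.08, adjusted p 0.0193), lost without WT replicate 3 (0.0649) or Tet2KO replicate 3. Pdia4 was at 234 ± 2.7 CPM in Id1KO against 252 ± 7.4 in WT (-0.11, adjusted p 0.0101), lost without WT replicate 2 (0.0699) or WT replicate 3. Its fold change of -0.08 in dKO against WT (adjusted p 0.0408) was lost in 10 of the 12 fits, all but those without WT replicate 1 or Id1KO replicate 2 (up to 0.2), and in DESeq2 (0.0775). Pdia6 had its lowest mean in Id1KO, at 398 ± 4.2 against 420.4 ± 14 CPM in WT (adjusted p 0.0506). All 4 isomerases had a lower mean in Id1KO than in WT, and 1 of the 4 was called. Of all 14346 genes tested, 7470 had a negative fold change in this comparison and 15.0% were called.

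Herpud1 (ENSMUSG00000031770.16, chromosome 8, 94386438 to 94395377) encodes a membrane protein that organises the complex for ER-associated degradation, and it gave the smallest adjusted p of the members. It had 85.2, 87.9 and 86.4 CPM where the label was WT and 88.1, 86.3 and 85.2 where it was Tet2KO. In Id1KO libraries the values were 111.9, 117 and 113.3 CPM, and in dKO libraries 94.4, 93.8 and 95.7. Id1KO was above all other libraries, dKO lay between, and WT and Tet2KO overlapped. The log2 fold change was 0.40 ± 0.03 in Id1KO against WT (1.32-fold, adjusted p 9.84e-09), -0.27 ± 0.03 in dKO against Id1KO (1.55e-06), and 0.13 ± 0.031 in dKO against both WT (0.00487) and Tet2KO (0.00391). In Tet2KO against WT it was 0.00 ± 0.031 (adjusted p 0.998). The interaction was -0.27 ± 0.043 (adjusted p 0.000248), and all 5 calls held in each fit. The Id1 label thus went with a higher Herpud1 level with and without the Tet2 label, and by less with it. Edem1, which trims mannose from chains to be degraded, was called in no comparison and ran from 153 ± 3.8 CPM in WT to 159.6 ± 3 in Tet2KO.

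Manf and Creld2, small ER proteins that are raised in ER stress, were both lower in Tet2KO than in WT. Creld2 (ENSMUSG00000023272.4, chromosome 15, 88819646 to 88826683) gave 41.7, 40.1 and 43.4 CPM in the WT libraries and 36.9, 37.8 and 34.4 in those labelled Tet2KO. The Id1KO libraries held 39.5, 42.9 and 44 CPM and the dKO libraries 42.3, 40.9 and 42.8. The 3 Tet2KO libraries were the lowest of the 12, and the other 3 groups overlapped. The log2 fold change was -0.20 ± 0.052 in Tet2KO against WT (adjusted p 0.00528), the lowest of the members called there, and without Tet2KO replicate 3 its adjusted p was 0.0521. It was 0.21 ± 0.053 in dKO against Tet2KO (adjusted p 0.00567), which held in each fit, and 0.01 in both Id1KO and dKO against WT (0.888 and 0.929). Manf was at 114 ± 5.4 CPM in Tet2KO against 125 ± 3.7 in WT (-0.13 ± 0.035, adjusted p 0.00698), lost without WT replicate 2 or Tet2KO replicate 3 (0.0734). In dKO against Id1KO it was at 122 ± 2.2 against 130.3 ± 3.1 CPM (-0.10, adjusted p 0.0478), lost in 7 fits: without WT replicate 3, Tet2KO replicate 2, Id1KO replicate 1 or 3, or any 1 of the 3 dKO libraries (up to 0.147), and in DESeq2 (0.0941). Exons of Manf overlap those of Dcaf1, a gene read in the other direction, and whether counting used strand is not given in the sources used here.

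**Figure D5:**
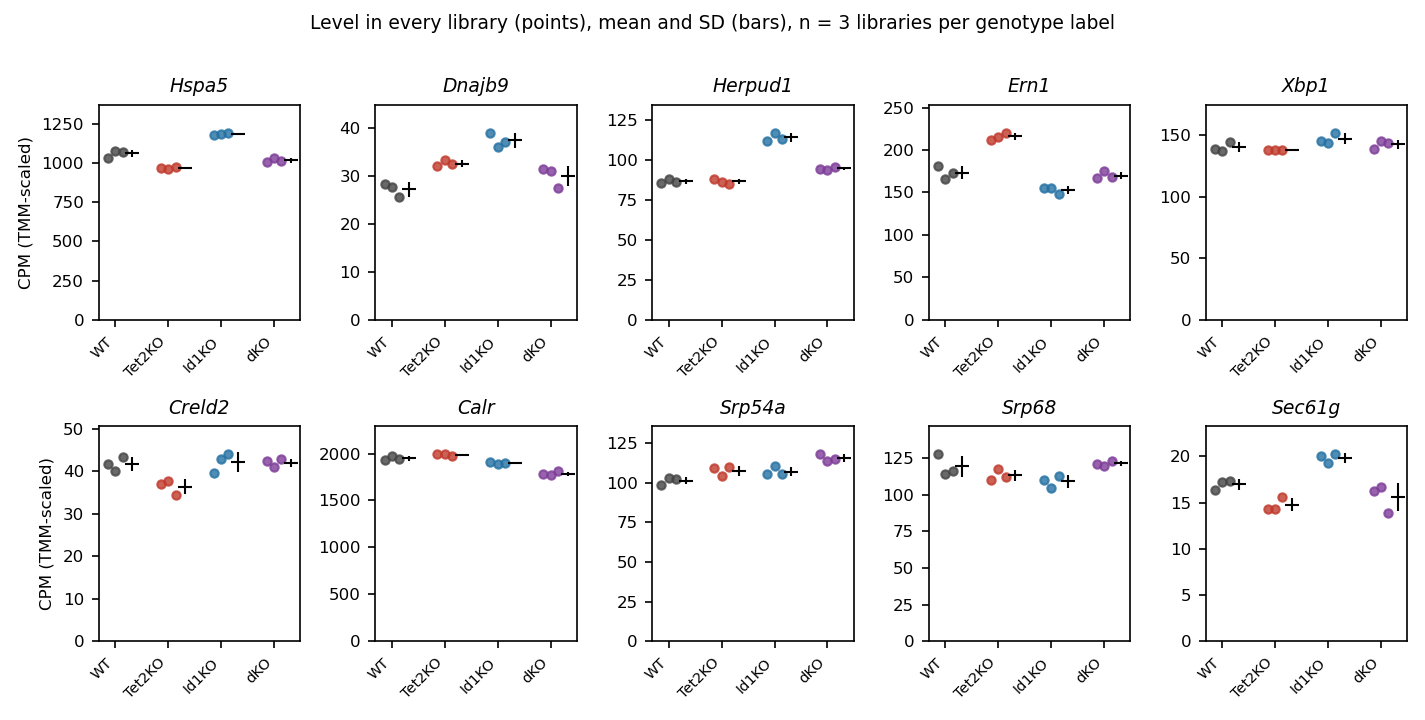
Level in CPM (y axes, from 0) of 10 genes in each library (points), with the mean and SD of the 3 libraries per genotype label (bars to the right). Hspa5, Herpud1 and Dnajb9 are highest in Id1KO, Ern1 is highest in Tet2KO, Creld2 is lowest in Tet2KO, Calr is lowest in dKO, and the WT libraries of Xbp1 overlap those of each other label.

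The rest of the pathway was followed through 97 further genes, of which 96 were in the table and 93 were tested. In Tet2KO against WT 6 were called higher and 19 lower, in Id1KO against WT 6 and 8, and in dKO against WT 5 and 16. These are 26.9%, 15.1% and 22.6% of the 93, beside 32.8%, 15.0% and 19.2% of all genes tested. The dKO libraries had 10 higher and 10 lower against Tet2KO, and 6 higher and 16 lower against Id1KO, and the interaction was called for 3 above and 2 below 0. These are 21.5%, 23.7% and 5.38%, beside 26.4%, 19.3% and 14.5% of all genes. The oligosaccharyltransferase, which attaches sugar chains beside the channel, had 0 higher and 5 lower of 12 in dKO against WT: Stt3b, Rpn1, Rpn2, Ddost and Ost4, where 8.97% of all genes were called lower. In the other 5 comparisons 0 to 2 of the 12 were called. Rpn1 stood at 467 CPM in WT and 414.5 in dKO (-0.17 ± 0.028, adjusted p 0.000182). Whether the calls of these 5 genes, and those of Tram1, Edem3 and Atf4 below, held in the other fits is not given here. The 5 signal peptidase genes were called in no comparison. Beside the channel, Tram1, which crosslinks to entering chains, was at 299.6 CPM in WT and 262 in dKO (-0.19 ± 0.026, adjusted p 1.97e-05). Its relative Tram2 went the other way, from 8.36 to 11.6 CPM (0.48 ± 0.089, adjusted p 0.000627), and was also higher in Tet2KO than in WT (0.42, 0.000973) and in dKO than in Id1KO (0.59, 8.4e-05). Emc9, of the insertion complex EMC, was lower in Tet2KO than in WT, at 3.94 against 5.77 CPM (-0.54 ± 0.14, adjusted p 0.00427).

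In ER-associated degradation, 3 of 20 genes were higher in Id1KO than in WT and 1 was lower, where 7.26% of all genes were called higher and 7.77% lower. Syvn1, the ubiquitin ligase Hrd1 with which Herpud1 works, was at 41.3 against 33.5 CPM (0.30 ± 0.047, adjusted p 0.000179). Derl2, a membrane protein of the same complex, was at 46.4 against 39.8 CPM (0.22 ± 0.045, adjusted p 0.00226), and Edem3 at 106 against 91.3 CPM (0.22 ± 0.034, 0.000165). Derl2 was lower in dKO than in Id1KO (-0.20, adjusted p 0.00382) and had a negative interaction (-0.26, 0.00938). Os9, a lectin that hands chains to Syvn1, was at 178.8 CPM in dKO against 205 in WT (-0.20, adjusted p 0.0002) and 201 in Tet2KO (-0.17, 0.000856), while its lower level in Id1KO against WT (-0.11, 0.0276) was lost without WT replicate 2 or 3 or Id1KO replicate 1 (0.177) or 3. Syvn1 was also called higher in dKO against WT (0.17, adjusted p 0.016), lost without WT replicate 2 (0.0725) or dKO replicate 2, and in DESeq2 (0.0674). In dKO against Tet2KO its call (0.15, adjusted p 0.0338) was lost without Tet2KO replicate 1 or 3 or dKO replicate 2 (0.127) or 3, and in DESeq2 (0.11). Rnf5, another ligase, was at 13.2 CPM in dKO against 11.1 in Id1KO (0.26, adjusted p 0.0462), a call lost without WT replicate 3, Tet2KO replicate 2, any 1 of the 3 Id1KO libraries or any 1 of the 3 dKO libraries (up to 0.144). DESeq2 lost the Rnf5 call too (0.132).

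Downstream of the sensors, Ppp1r15a (GADD34, which reverses the translation block set by PERK) was at 53.4 ± 1.84 CPM in Tet2KO against 70.6 ± 1.58 in WT (-0.40 ± 0.044, adjusted p 6.97e-07). It was also lower in dKO against WT (-0.27, adjusted p 0.000161), with an interaction of 0.28 (0.00514). Atf4, the factor raised by PERK, was at 202 against 221 CPM in Tet2KO against WT (-0.13 ± 0.029, adjusted p 0.00151). Ddit3 (CHOP), a target of ATF4 that favours cell death, stood at 9.26 CPM in dKO against 12.6 in Id1KO (-0.45 ± 0.089, adjusted p 0.00118), while its higher level in Id1KO against WT (0.32, 0.0147) was lost without WT replicate 2 (0.083) or Id1KO replicate 2, and in DESeq2 (0.0513). Nfya, a subunit of the factor that binds the CCAAT letters of the ER stress element, was at 126.5 CPM in Tet2KO against 104.7 in WT (0.27 ± 0.035, adjusted p 5.24e-06). Tmbim6, an ER membrane protein that restrains IRE1, was at 353 CPM in dKO against 394 in Tet2KO (-0.16, adjusted p 0.000431). Srp54b, the copy of Srp54a, was at 73 CPM in dKO against 60.9 in WT (0.26 ± 0.064, adjusted p 0.00601). Sec61a2, the second pore gene, was at 13.3 CPM in dKO against 15.6 in Id1KO (-0.24, adjusted p 0.0418), a call lost without WT replicate 2, Tet2KO replicate 2, any 1 of the 3 Id1KO libraries, dKO replicate 1 or dKO replicate 3 (up to 0.203). DESeq2 lost the Sec61a2 call too (0.13). Exons of some named pathway genes overlap those of a gene read in the other direction. Nudt5 overlaps Sec61a2 over 909 bp, with a mean count of 1837 against 245.5. Agbl5 overlaps Ost4 over 677 bp (324 against 1067) and Mis12 overlaps Derl2 over 231 bp (834 against 750). Mars overlaps Ddit3 over 68 bp (2263 against 185). As for Manf, whether counting used strand is not given. Of the folding enzymes, Txndc5 was at 126.5 CPM in Id1KO against 145 in WT (-0.20 ± 0.027, adjusted p 4.93e-05), Cnpy3 at 73.9 against 82.5 (-0.16, 0.00739), and Mogs, which starts glucose trimming, at 246 in Tet2KO against 281 in WT (-0.19, 6.5e-05). Tmx1 was at 98.8 CPM in dKO against 84.1 in Tet2KO (0.23, adjusted p 0.000106).

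Cell type markers moved with the same labels. Summed levels of 11 erythroid markers were 1573 to 1622 CPM per library in WT, 946 to 959 in Tet2KO, 1761 to 1795 in Id1KO and 1569 to 1587 in dKO, an order in which Tet2KO is lowest and Id1KO highest, as for Hspa5. Of the 11 erythroid markers, 0 were called higher and 10 lower in Tet2KO against WT, beside 16.6% and 16.2% of all genes. In Id1KO against WT 2 were called higher and 0 lower, beside 7.26% and 7.77% of all genes. The median log2 fold change of the 11 was 0.04 there. Summed levels of 11 neutrophil granule markers were 14440 to 14510, 15930 to 16170, 12230 to 13190 and 12030 to 13210 CPM, highest in Tet2KO, as for Ern1. The sums in Id1KO and dKO overlapped, while Ern1 was lower in Id1KO than in dKO. Most of each sum was Mpo, which is also in the progenitor list. Of the 11 neutrophil granule markers, 6 were called higher and 2 lower in Tet2KO against WT, beside 16.6% and 16.2% of all genes. Megakaryocyte markers (8 genes) summed to 228 to 241 CPM in Id1KO and to 160.2 to 183 in the other libraries, and the 8 markers of mast cells, basophils and eosinophils to 474 to 479 in Id1KO and 307 to 397 elsewhere. In Id1KO against WT 3 of the 8 megakaryocyte markers and 2 of the other 8 were called higher, and 0 of either list lower. Of all genes, 7.26% were called higher in that comparison. Monocyte and dendritic markers summed to 851 to 871, 969 to 971, 755 to 762 and 942 to 971 CPM in WT, Tet2KO, Id1KO and dKO. Markers of the plasma cell list summed to 125 to 127, 144 to 149, 99.3 to 104 and 132 to 145 CPM, most of it Ighm, while B cell markers summed to 25.8 to 38.4 CPM and those of T and NK cells to 117 to 157 CPM over all libraries. Progenitor markers (9 genes) summed to 11980 to 12040, 13200 to 13460, 10070 to 10810 and 10000 to 10770 CPM in the same order of labels, and the 7 depletion antigens to 35.9 to 47 CPM over all libraries. Most of the progenitor sum was Mpo, at a mean of 9912, 11140, 8428 and 8505 CPM in that order. In Tet2KO against WT 7 of the 9 were called higher, and Myb (-0.10) and Gata2 (-0.24) were called lower. Of all genes, 16.6% were called higher and 16.2% lower there. No marker of these lists was at 0 in all libraries. Their part in the differences of the ER genes was not tested. In sorted bulk samples a change in the share of a cell type and a change of RNA per cell cannot be told apart.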

How the data were processed

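RNA of sorted donor Lin- Kit+ cells was sequenced from stranded total RNA libraries after ribosomal RNA depletion, per the labels' protocols. The authors deposited 1 table of estimated counts per gene for 12 libraries. STAR, RSEM and mm10 are named in the submitters' processing notes, without versions or settings. All 55450 gene identifiers matched GENCODE M21, from which exons and positions (GRCm38) were taken.

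Estimated counts were rounded to whole numbers. Low genes were removed with filterByExpr (minimum count 10), and the rest were scaled by TMM and fitted with edgeR 4.0.16 (glmQLFit and glmQLFTest, R 4.3.3) over all 12 libraries with 1 mean per genotype label. The 6 comparisons share libraries. P-values were adjusted by Benjamini and Hochberg over 14346 genes, with a threshold of 0.05. The common biological coefficient of variation was 0.031. Totals of 15706407 to 19959183 counts per library set the precision. CPM were computed from the scaled counts. Scripts were tested on simulated data.

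Copies were found with BLAST 2.17.0 (identity of at least 95%). Promoters were RefSeq's on GRCm38.p6, and proteins were not analysed here. Values in every library are given for Hspa5, Xbp1 and, per comparison, the called member with the highest and the lowest log2 fold change. Herpud1 was added after its values were seen. Of the other pathway genes, the 2 highest and 2 lowest called per comparison, with at least 5 CPM, are named by that rule, and Stt3b, Rpn1, Rpn2, Ddost, Ost4, Tram1, Edem3 and Atf4 were chosen after their values were seen. For these pathway genes chosen later, results under the alternatives are not given. The members and lists were chosen with earlier results of these data known. Alternatives were DESeq2 1.42.0, other scalings and filters, only the libraries compared, a replicate block, sums per genotype, sums with copies, a test against a 1.2-fold change, and leaving out each library.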

Additional observations from a re-analysis of the deposited data

Results flagged for a closer look

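For 5 members the effect of 1 label differed with the other label, by the interaction term of edgeR's quasi-likelihood test. They are 13.5% of the 37, beside 14.5% of all genes tested. The interaction, on the log2 scale, was -0.58 for Dnajb9 (adjusted p 6.36e-05), whose level was higher than under WT with each label alone. It was -0.27 for Herpud1 (adjusted p 0.000248), where the Id1 label went with a larger difference without the Tet2 label (0.40) than with it (0.13). For Calr it was -0.12 (adjusted p 0.021), with the lowest levels under both labels, and the call was lost with no filter on low counts (0.072). Ern1 had an interaction of -0.17 (adjusted p 0.0212), lost without WT replicate 2, Tet2KO replicate 3 (0.0568), Id1KO replicate 1 or Id1KO replicate 2. Srp68 had the 1 positive value, 0.23 (adjusted p 0.00978). The libraries of each genotype may come from 1 cell sample, and Xist differed between the labels. The part of either in these terms was not tested.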

How the results depend on the processing

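Counts of members called stayed within 1.5 times the reported ones under DESeq2 (11, 6, 5, 8, 8 and 6 in the order Tet2KO, Id1KO and dKO against WT, then dKO against each single label, then the interaction). They did so too under RLE scaling, upper-quartile scaling or scaling on genes other than mitochondrial and small structural ones, both other filters, only the libraries compared, and sums with copies. Tested against a 1.2-fold change, 0, 2, 0, 0, 0 and 1 members were called. With libraries summed per genotype, 0 were called for either label, which left 4 sums in the fit and gave no value for dKO against WT or the interaction. Leaving out 1 library gave 8 to 17 calls in Tet2KO against WT (8 without Tet2KO replicate 3), 5 to 10 in Id1KO against WT (5 without Id1KO replicate 1), 3 to 7 in dKO against WT (3 without WT replicate 2), 6 to 10 in dKO against Tet2KO, 8 to 12 in dKO against Id1KO and 4 to 6 in the interaction. Signs turned for Srp72 in Tet2KO against WT when summed with copies of 100 bp or more (0.0071, adjusted p 0.841), where the copies are dispersed repeats, and for Sec61g in Id1KO against WT with its copy (-0.0137, and -0.0145 with copies of 300 bp or more, a limit chosen after seeing the data). In the sums per genotype they turned for Dnajb9 in Tet2KO against WT (-0.0271) and Ppp1r15a in dKO against Tet2KO (-0.0034), where the fit has no interaction. The suffixes of the titles did not pair libraries: correlations of deviations were -0.097 to 0.113 for the same suffix and -0.104 to 0.174 for others. A replicate block by suffix gave 12, 8, 5, 7, 9 and 5 calls. No scaling moved the median of all genes by over 0.1 on the log2 scale. Depth limits Sec61g most, with as few as 234 counts in a library.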
